A study of Mus musculus with 6 samples.

Results

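The 10 nuclear genes described here encode proteins that transcribe the mitochondrial chromosome or process and stabilise its RNA. They were taken from the count table by symbol (Polrmt, Tfam, Tfb1m, Tfb2m, Tefm, Lrpprc, Slirp, Trmt10c, Hsd17b10 and Elac2), and all 10 were found among its 54532 genes. The list was chosen by function, prompted by the uneven levels of transcripts of the mitochondrial chromosome in these same libraries, in the same contrast of DB2313 with control. All 10 passed the filter on low counts. None of the 10 passed the test in edgeR, with estimates from a log2 fold change of -0.18 for Tefm to 0.41 for Tfb2m.

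RNA-seq was performed on 6 libraries of mouse dendritic cells, antigen-presenting cells that instruct T cells, all kept in medium with serum. The 3 control libraries had no DB2313, and the 3 others were treated with DB2313, which the study describes as an inhibitor of Spi1 (PU.1), a transcription factor of the ETS family that drives myeloid genes. The labels give no strain, age, sex, dose or time, and do not say whether the samples of a group came from separate cultures, so p-values measure the spread between these samples, which may be technical. The columns of the treated libraries are named for Spi1, and they were read as the DB2313 group. All directions given here depend on that reading.

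Total counts ranged from 16146743 to 19764677 per library, and DB2313 replicate 2 was the deepest. Pairs of control libraries differed by a chi-square of 4.77 to 5.28 per degree of freedom over genes and pairs of DB2313 libraries by 7.43 to 17.7, the highest being that of replicates 1 and 3. The study's text speaks of macrophages where the labels name dendritic cells. Of the markers listed for each cell type, 12 of 15 for dendritic cells, 14 of 15 for macrophages, 10 of 10 for neutrophils, 8 of 9 for mast cells and basophils and 8 of 10 for T cells exceeded 10 CPM (counts scaled to a common library size) in control, against 0 of 5 for B cells and 0 of 5 for fibroblasts. The fibroblast markers Col3a1 and Dcn had no count in any library. The summed level of the macrophage markers was 10439 to 11843 CPM in control and 9229.6 to 10135 CPM with DB2313, with 1 marker higher and 10 lower in edgeR. That of the dendritic cell markers was 15914 to 16553 and 13332 to 15986 CPM (1 higher, 3 lower), and that of the neutrophil markers 4463 to 5010.1 and 4509 to 5919 CPM (2 higher, 1 lower). Mast cell and basophil markers were at 2519 to 2719.8 and 2568 to 3079 CPM (2 higher, 0 lower), and T cell markers at 218 to 253 and 218 to 326 CPM (0 higher, 0 lower). The numbers tested were 15 for macrophages, 14 for dendritic cells, 10 for neutrophils, 8 for mast cells and basophils and 10 for T cells. Of all tested genes, 4.66% passed as higher and 5.94% as lower in edgeR. B cell markers summed to 2.82 to 4.06 CPM in control and 5.05 to 6.44 CPM with DB2313, and fibroblast markers to 0.984 to 1.63 and 0.961 to 1.64 CPM. The part of these cell types in the values below was not tested, and in bulk RNA fewer cells of a type cannot be told apart from less RNA per cell.

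Mitochondria carry a small circular chromosome that is transcribed as long precursors from promoters in one region. The polymerase is Polrmt, which needs the DNA-bending protein Tfam and the factor Tfb2m to start and Tefm to elongate. In the precursors, tRNAs lie between most of the other genes and are cut out at both ends, which frees the mRNAs and rRNAs. The 5′ cut is made by a complex of Trmt10c, Hsd17b10 and a nuclease subunit, and the 3′ cut by Elac2. The pair of Lrpprc and Slirp then binds and stabilises the mRNAs, and Tfb1m methylates the small rRNA.

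The values that led to the list are those of the mitochondrial transcripts, which are given as a description with no test. Counts on the mitochondrial chromosome were 2.06% to 2.41% of all counts in control and 1.46% to 1.57% with DB2313. mt-Nd1, which encodes a complex I subunit, had 32179, 38977 and 36693 counts in control and 11555, 11323 and 9848 with DB2313, with libraries in the order of replicates 1 to 3 here and throughout. Its share of all mitochondrial counts was 9.59% to 10.4% in control and 3.88% to 4.44% with DB2313. The share of its neighbour mt-Nd2 was 4.30% to 4.44% in control and 1.83% to 1.93% with DB2313. mt-Rnr1, the small rRNA, lies upstream of both and went the other way, with a share of 3.67% to 3.82% in control and of 7.79% to 8.86% with DB2313. mt-Co1, a subunit of complex IV and the most counted of these transcripts, held 44.4% to 46.5% of the mitochondrial counts in control and 45.1% to 47.4% with DB2313.

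Of the 37 mitochondrial genes, 10 encoding a protein or an rRNA had a mean of at least 1000 counts. In CPM, the DB2313 libraries lay below all control libraries for 6 of them (mt-Nd1, mt-Nd2, mt-Co1, mt-Co2, mt-Nd4 and mt-Cytb) and above for mt-Rnr1, and the groups overlapped for mt-Rnr2, mt-Nd5 and mt-Nd6. Among all 14174 tested genes, groups did not overlap in either direction for 27.4%. The fitted log2 fold changes ± SE of the proteins were -1.85 ± 0.09 for mt-Nd1, -1.77 ± 0.08 for mt-Nd2, -0.82 ± 0.09 for mt-Nd4, -0.77 ± 0.08 for mt-Cytb, -0.52 ± 0.07 for mt-Co1, -0.36 ± 0.10 for mt-Nd5, -0.27 ± 0.09 for mt-Co2 and -0.21 ± 0.09 for mt-Nd6. Those of the rRNAs were 0.61 ± 0.08 for mt-Rnr1 and -0.04 ± 0.08 for mt-Rnr2, the large rRNA. The omission of control replicate 2 gave -0.21 for mt-Nd5, -0.12 for mt-Nd6 and 0.03 for mt-Rnr2. At the other end, mt-Nd5 was at -0.45 when control replicate 1 was omitted, and mt-Nd6 and mt-Rnr2 were at -0.31 and -0.11 when DB2313 replicate 1 was. With a length offset mt-Nd6 was at -0.33. mt-Co2 shares 681 bp at 100% identity with the nuclear pseudogene Gm28661, mt-Nd4 shares 876 bp at 100% identity with Gm28439, and mt-Co1 shares 483 bp at 99.8% identity with Gm29216, so these values are uncertain, that of mt-Co2 most. Summed over all libraries, Gm28661 had 6257 counts, Gm28439 801 and Gm29216 2276. Counts in each library were 959 to 1139 for mt-Co2, 11964 to 23852 for mt-Nd4 and 117434 to 172700 for mt-Co1. Between mt-Rnr2 and mt-Nd1 lies the leucine tRNA mt-Tl1, which was singled out after its values were seen. It had 90, 139 and 92 counts in control and 16, 18 and 12 with DB2313, a log2 fold change of -2.93 ± 0.30 (SE). The best counted tRNA, mt-Tp, had 567 to 1313 counts per library and went the other way, at 0.84 ± 0.09. It was the only tRNA above 0 among those that passed the filter. The next best counted, mt-Tn and mt-Tc, were at -0.25 ± 0.17 and -0.06 ± 0.23. Whether reads on such short genes came from uncut precursors was not tested.

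**Figure D1:**
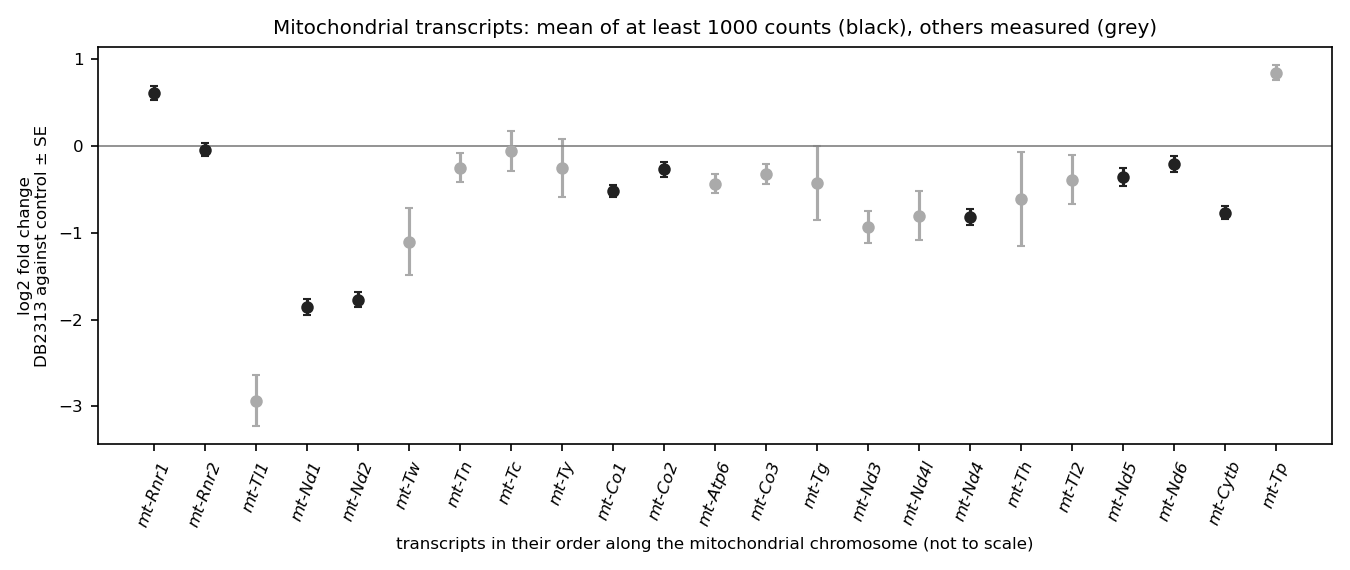
Fitted log2 fold change (DB2313 against control, vertical axis, ± SE) of the 23 mitochondrial transcripts that passed the filter, in their order along the chromosome. Black points are the 10 protein or rRNA genes with a mean of at least 1000 counts, grey points the others, and the lowest values lie next to each other at mt-Tl1, mt-Nd1 and mt-Nd2.

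To ask whether the nuclear factors moved in the same libraries, their counts were tested by the quasi-likelihood method of edgeR, with p-values adjusted (Benjamini-Hochberg) over all 14174 tested genes. At a threshold of 0.05, 0 of the 10 factors were higher and 0 lower, where 10.6% of all tested genes passed (4.66% higher, 5.94% lower). At an unadjusted p under 0.05 there were 2, Tfb2m and Hsd17b10, where 23.3% of all tested genes were under it. DESeq2 and limma-voom called 0 as well. The fitted log2 fold change was above 0 for 5 factors and below 0 for 5, with a median of -0.016 against 0.00082 over all tested genes. Because the same contrast had prompted the list, nothing is read from these counts about the factors as a group.

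The proteins that start transcription are described first. Polrmt (ENSMUSG00000020329, GRCm38 chromosome 10, 79736123 to 79746581, minus strand), the polymerase itself, had 21.2, 22.5 and 19.6 CPM in control and 23.0, 19.7 and 19.2 CPM with DB2313. Tfam (ENSMUSG00000003923, chromosome 10, 71225464 to 71238280, minus strand), which packs the chromosome and bends the DNA at its promoters, had 29.6, 26.0 and 27.6 CPM in control and 29.3, 27.0 and 24.9 CPM with DB2313. For both genes the groups overlapped, and DB2313 replicate 1 was the highest of its group. The log2 fold change of Polrmt was -0.03 ± 0.11 (SE, adjusted p of 0.908 in edgeR), with a 95% interval of -0.27 to 0.21. For Tfam it was -0.03 ± 0.10 (adjusted p of 0.890 in edgeR), with an interval of -0.25 to 0.18. These intervals leave room for a change from 0.827 to 1.16 times control for Polrmt and from 0.840 to 1.14 times for Tfam.

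Tfb2m (ENSMUSG00000026492, chromosome 1, 179528055 to 179546267, minus strand), the factor that melts the promoter for Polrmt, had the highest estimate of the 10 with all libraries. It had 195, 190 and 239 counts in control and 237, 407 and 278 with DB2313, or 11.99, 11.92 and 14.99 CPM against 14.4, 20.4 and 16.7 CPM. The groups overlapped at 1 pair of libraries, since control replicate 3 was above DB2313 replicate 1. The control mean was 13.0 ± 1.75 CPM and the DB2313 mean 17.2 ± 3.04 CPM (SD, n = 3 each), a log2 fold change of 0.41 ± 0.15 (SE) with a 95% interval of 0.09 to 0.73. In edgeR its p was 0.0159 before adjustment and 0.103 after it. Without DB2313 replicate 1 the log2 fold change was 0.52 and the edgeR adjusted p 0.0189, whereas without DB2313 replicate 2, its highest library, they were 0.26 and 0.452. When control replicate 1 was left out, the log2 fold change was 0.36, below the 0.39 of Trmt10c. Tfb2m shares 1187 bp at 99.3% identity with the pseudogene Gm1818, which had 35 to 48 counts per library, and adding these counts gave a log2 fold change of 0.36 (edgeR adjusted p of 0.117).

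Tfb1m (ENSMUSG00000036983, chromosome 17, 3519256 to 3557781, minus strand), the paralog that methylates the small rRNA, had 5.23, 6.65 and 6.27 CPM in control and 5.10, 5.42 and 6.19 CPM with DB2313. The estimate was -0.12 ± 0.19 on the log2 scale (SE, edgeR adjusted p of 0.773, interval of -0.53 to 0.29), and 3.93% of its exon bases are shared with Tiam2. The ratio of Tfb2m to Tfb1m counts was 1.79 to 2.39 in control and 2.70 to 3.77 with DB2313. Every DB2313 ratio was above every control ratio, for which the exact permutation test (two-sided) gave 0.1, the smallest p that 3 libraries a group allow. Groups did not overlap in CPM for 27.4% of all tested genes, and the share for ratios of other gene pairs was not computed. The ratio of Tfam to Polrmt counts was 1.16 to 1.41 in control and 1.28 to 1.37 with DB2313, with the DB2313 range inside that of control. Tefm (ENSMUSG00000046909, chromosome 11, 80136678 to 80142175, minus strand), the elongation factor, had 85 to 117 counts per library, with means of 6.21 ± 1.03 CPM in control and 5.48 ± 0.823 CPM under DB2313 (SD, n = 3 each). The estimate of -0.18 ± 0.20 on the log2 scale (SE, edgeR adjusted p of 0.654) was the lowest of the 10 with all libraries, with an interval of -0.62 to 0.25. It was -0.29 without DB2313 replicate 3. Without control replicate 2 the estimate of Tefm was -0.041 and that of Tfam lower, at -0.071. Without DB2313 replicate 2 the estimate of Tefm was -0.07 and that of Tfb1m lower, at -0.098. Without DB2313 replicate 1 that of Slirp was lower, at -0.42 against -0.20 for Tefm.

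The cutting enzymes follow. Hsd17b10 (ENSMUSG00000025260, chromosome X, 152001845 to 152004442, plus strand), a dehydrogenase that also serves as a subunit of the 5′ processing complex, had 27.4, 27.5 and 24.5 CPM in control and 30.8, 33.7 and 28.8 CPM with DB2313. It was the only factor of the 10 whose groups did not overlap, with every DB2313 library above every control library, as for 12.9% of all tested genes. The log2 fold change of Hsd17b10 was 0.24 ± 0.10 (SE, 95% interval of 0.02 to 0.45), and in edgeR its p was 0.0344 before adjustment and 0.170 after it. Without DB2313 replicate 2 the log2 fold change was 0.17 and the edgeR adjusted p 0.515. With all 6 libraries and a length offset they were 0.17 and 0.330.

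Trmt10c (ENSMUSG00000044763, chromosome 16, 56032609 to 56037819, minus strand), the methyltransferase subunit of that complex, had 14.6, 11.7 and 12.2 CPM in control and 16.5, 17.3 and 13.2 CPM with DB2313. The groups overlapped only through control replicate 1 and DB2313 replicate 3. The log2 fold change of Trmt10c was 0.29 ± 0.14 (SE, edgeR adjusted p of 0.249), with an interval of -0.02 to 0.59. The ratio of Trmt10c to Hsd17b10 counts was 0.424 to 0.535 in control and 0.456 to 0.533 with DB2313, so the DB2313 range lay inside that of control. Elac2 (ENSMUSG00000020549, chromosome 11, 64979038 to 65002069, plus strand), the 3′ nuclease, had 22.8, 28.2 and 25.9 CPM in control and 27.8, 26.3 and 31.5 CPM with DB2313. For Elac2 the log2 fold change was 0.15 ± 0.11 (SE, edgeR adjusted p of 0.448), with an interval of -0.08 to 0.39, and 0.891% of its exon bases are shared with Arhgap44. DB2313 replicate 2 was the highest of all 6 libraries for Tfb2m, Trmt10c and Hsd17b10, and DB2313 replicate 3 was the highest for Elac2.

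The RNA-binding pair was counted with very unequal precision. Lrpprc (ENSMUSG00000024120, chromosome 17, 84705247 to 84790789, minus strand) had 858 to 1203 counts per library, the most of the 10. It had 54.5, 61.0 and 57.6 CPM in control and 52.1, 60.3 and 60.7 CPM with DB2313, and both means were 57.7 CPM. Its log2 fold change was 0.00089 ± 0.09 (SE, edgeR adjusted p of 0.997), and the interval of -0.19 to 0.19 was the narrowest of the 10. Slirp (ENSMUSG00000021040, chromosome 12, 87443896 to 87452206, plus strand) had 21, 24 and 21 counts in control and 31, 17 and 20 with DB2313. Of its exon bases, 97.8% are overlapped by exons of Snw1 and Alkbh1 on the opposite strand, and without strand information reads there cannot be given to one gene, so its level is uncertain. Its interval of -0.94 to 0.79 around a log2 fold change of -0.07 (edgeR adjusted p of 0.941) was the widest, and the ratio of Lrpprc to Slirp counts ran from 27.7 to 70.8 within the DB2313 group, against 40.5 to 43.7 in control.

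**Figure D2:**
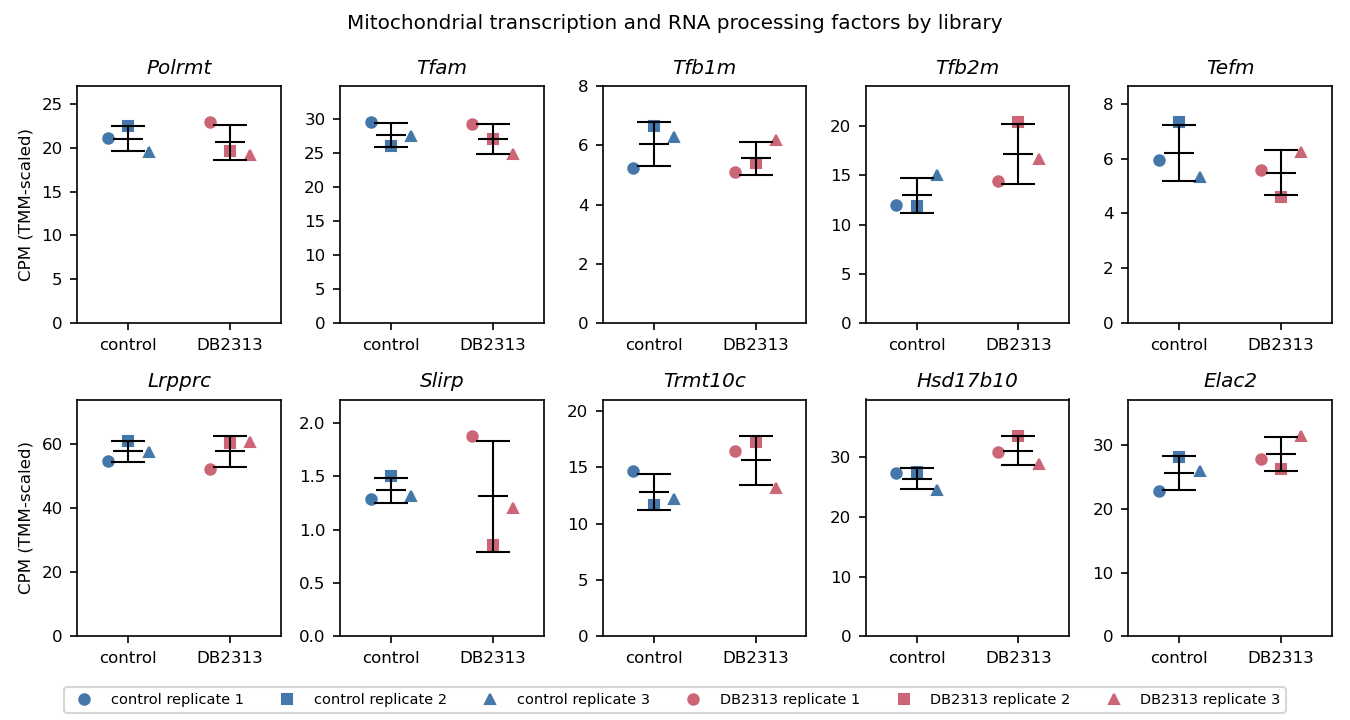
CPM of the 10 factors in each library (points, with the shape giving the replicate number), with mean and SD per group (bars, n = 3 each), each panel on an axis of its own that starts at 0. The groups overlap in every panel but that of Hsd17b10, and the 3 DB2313 points of Slirp lie from 0.853 to 1.88 CPM.

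**Figure D3:**
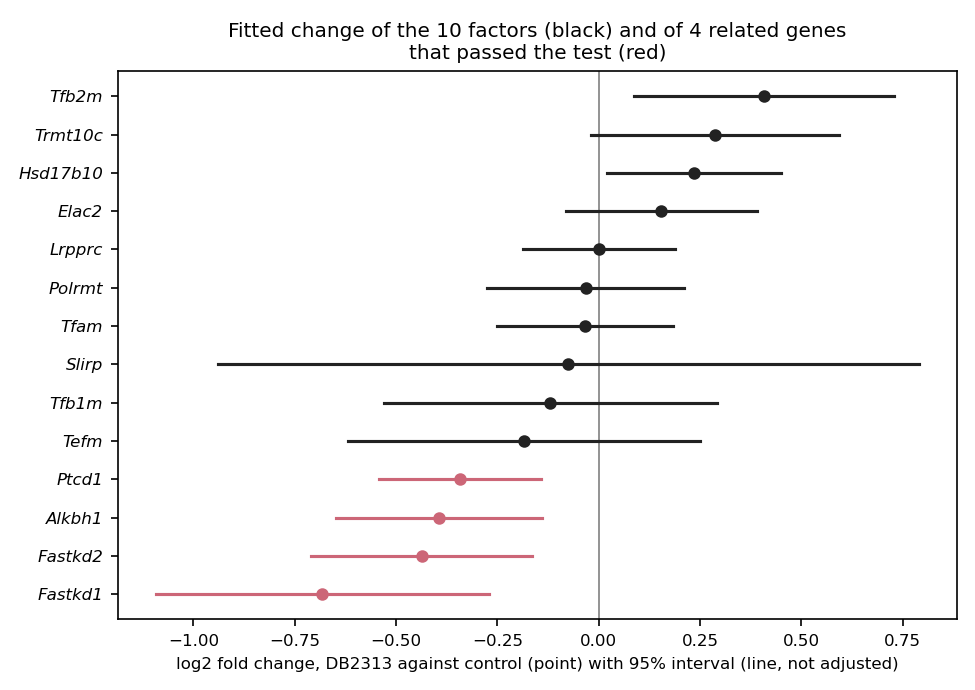
Fitted log2 fold change with its unadjusted 95% interval for the 10 factors (black) and for 4 related genes that passed the test (red). The intervals of Tfb2m and Hsd17b10 lie above 0 before adjustment, and that of Slirp runs from -0.94 to 0.79.

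Levels of different genes were compared per kilobase of the deposited gene length, as CPM per kilobase. In control, Hsd17b10 was highest at 20.4 ± 1.33, followed by Elac2 (7.37 ± 0.773), Lrpprc (6.78 ± 0.379), Tfam (6.25 ± 0.400), Tfb2m (4.62 ± 0.625), Polrmt (4.50 ± 0.315), Trmt10c (4.27 ± 0.529), Tefm (3.96 ± 0.654), Tfb1m (1.68 ± 0.204) and Slirp (0.442 ± 0.0377, SD, n = 3). The libraries of neighbours overlapped from Elac2 to Tfam and from Tfb2m to Tefm, so the order within these runs is not set by the data. With DB2313, Hsd17b10 was again highest (24.0 ± 1.86) and Elac2 next (8.20 ± 0.763), and Tfb2m stood at 6.12 ± 1.08 beside Tfam at 6.11 ± 0.495 CPM per kilobase, where its libraries overlapped those of Lrpprc and Tfam. The deposited lengths cover all annotated exons. A second length was that of the annotated mRNA with the longest coding sequence. Per kilobase of that mRNA, Lrpprc (4393 bp of a deposited 8504 bp) came second in control at 13.1 ± 0.733, while Hsd17b10 (26.7 ± 1.74) stayed first and Slirp (0.508 ± 0.0433) last. Tfb1m, whose coding mRNA is 1402 bp of a deposited 3609 bp, was then at 4.31 ± 0.526, beside Tefm (4.75 ± 0.784) and Trmt10c (4.27 ± 0.529). Its mean stayed below that of Tefm, but the size of the gap depends on the length used. Within groups, the coefficient of variation in CPM ran from 5.58% for Lrpprc to 16.5% for Tefm in control, and from 7.76% for Hsd17b10 to 39.9% for Slirp with DB2313.

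Promoters of some of these genes are known for binding sites of NRF1 and of GABP, an ETS factor like the target of DB2313. RefSeq promoters (GRCm38.p6, from 250 bases before the transcript start to 50 after it) were matched for all 10 genes. They are shown for Tfam, which has one of the best known of these promoters, and for the 3 factors with the highest estimates. Capitals mark the letters CGGAAG or their reverse complement (an ETS core), GAGGAAGT (an ETS site of the PU.1 type) and CGCATGCG (the centre of the NRF1 palindrome).
Tfam, chr10:71237995-71238294, minus strand: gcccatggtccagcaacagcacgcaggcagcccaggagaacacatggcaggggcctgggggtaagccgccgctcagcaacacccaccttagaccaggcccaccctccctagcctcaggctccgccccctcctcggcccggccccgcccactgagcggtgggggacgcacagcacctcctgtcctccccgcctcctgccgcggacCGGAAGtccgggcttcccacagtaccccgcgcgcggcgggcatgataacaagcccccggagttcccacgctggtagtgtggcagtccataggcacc
Tfb2m, chr1:179546227-179546526, minus strand: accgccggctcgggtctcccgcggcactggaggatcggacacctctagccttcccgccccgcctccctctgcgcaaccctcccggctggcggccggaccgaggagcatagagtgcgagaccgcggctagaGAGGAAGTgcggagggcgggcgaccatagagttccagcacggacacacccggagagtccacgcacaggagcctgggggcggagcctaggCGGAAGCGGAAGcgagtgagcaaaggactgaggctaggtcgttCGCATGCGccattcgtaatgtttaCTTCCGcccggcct
Trmt10c, chr16:56037737-56038036, minus strand: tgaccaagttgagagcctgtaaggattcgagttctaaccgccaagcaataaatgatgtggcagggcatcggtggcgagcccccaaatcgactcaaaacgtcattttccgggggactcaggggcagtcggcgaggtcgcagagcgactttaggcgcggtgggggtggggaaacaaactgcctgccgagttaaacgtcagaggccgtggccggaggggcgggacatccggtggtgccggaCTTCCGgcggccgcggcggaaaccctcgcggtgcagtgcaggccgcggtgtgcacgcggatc
Hsd17b10, chrX:152001646-152001945, plus strand: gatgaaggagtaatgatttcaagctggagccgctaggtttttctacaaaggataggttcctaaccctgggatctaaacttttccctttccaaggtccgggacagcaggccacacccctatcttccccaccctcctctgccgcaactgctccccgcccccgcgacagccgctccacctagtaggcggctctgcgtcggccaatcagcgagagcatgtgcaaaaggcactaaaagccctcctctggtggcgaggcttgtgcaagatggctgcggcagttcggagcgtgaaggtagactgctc

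On either strand, CGGAAG was found in the promoters of 7 of the 10 factors (Polrmt, Tfam, Tfb2m, Tefm, Slirp, Trmt10c and Elac2), and in 16.9% of all 32851 RefSeq promoters and 29.8% of the 13045 promoters of tested genes. The longer GABP type letters CCGGAAGT, which contain CGGAAG, were found for Tfam, Tefm and Trmt10c, beginning 47, 9 and 13 bases before the start, and in 3.89% of all promoters and 7.80% of those of tested genes. GAGGAAGT was found for Tfb2m alone, 120 bases before the start, and in 3.20% of all promoters and 3.48% of those of tested genes. CGCATGCG was also found only for Tfb2m, 12 bases after the start, and in 1.87% of all promoters and 3.59% of those of tested genes, and with a further G before it and C after it, the full palindrome, it was in none of the 10, in 0.971% of all and in 1.97% of those of tested genes. Hsd17b10, Lrpprc and Tfb1m held none of the letters searched. No binding was measured here, a match is a string of letters and not a site, and the letters were chosen with these sequences in view.

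Other genes of mitochondrial gene expression were taken from 4 lists written from general knowledge. All 76 were in the table and 75 were tested. By the edgeR test 4 of the 75 passed as lower and 0 as higher, where 5.94% of all tested genes passed as lower and 4.66% as higher, so the share that was lower was near that of all genes. At an unadjusted p under 0.05 there were 7, where 23.3% of all tested genes were under it. The median log2 fold change was 0.014. In the list for termination, processing and decay of mitochondrial RNA, 0 of 26 were higher and 3 lower (median of -0.031), and in that for RNA modification 0 of 26 were higher and 1 lower (median of 0.017). Of 14 genes for upkeep of mitochondrial DNA and 9 tested nuclear regulators, 0 were higher and 0 lower in edgeR, with medians of 0.030 and -0.071. At an unadjusted p under 0.05 the lists held 3, 1, 1 and 2 genes in the order given here. DESeq2 and limma-voom called the same 4 genes among the 75. Leaving out DB2313 replicate 3 added Polg, the mitochondrial DNA polymerase, and Gabpb2, a GABP subunit, as lower, and leaving out DB2313 replicate 1 added Dna2, a nuclease and helicase, as higher. Ppargc1a, a coactivator of mitochondrial biogenesis, had 0 to 10 counts and was not tested. Its paralog Ppargc1b, with 66 to 136 counts, had the lowest estimate of the 9 tested nuclear regulators. This was a log2 fold change of -0.53 (95% interval of -1.02 to -0.04, edgeR adjusted p of 0.170).

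The genes that fell were 2 of the FASTK family of mitochondrial RNA-binding proteins, 1 pentatricopeptide protein that acts on mitochondrial RNA, and 1 demethylase of nucleic acids. Fastkd1 had 6.58, 6.21 and 6.40 CPM in control and 4.19, 3.81 and 3.97 CPM with DB2313. This is a log2 fold change of -0.68 ± 0.19 (SE, edgeR adjusted p of 0.0341). Fastkd2, which is needed for the large mitochondrial rRNA, had 14.3, 14.1 and 14.2 CPM in control and 10.8, 10.1 and 10.5 CPM with DB2313. Both genes are named because they passed this test, so the separation of their groups adds nothing to it. Counts per library were 66 to 107 for Fastkd1 and 175 to 233 for Fastkd2. For Fastkd2 the log2 fold change was -0.44 ± 0.13 (SE, edgeR adjusted p of 0.0400).

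Ptcd1, which binds leucine tRNAs and their precursors, had 34.3, 35.7 and 36.8 CPM in control and 26.2, 27.9 and 30.0 CPM with DB2313, a log2 fold change of -0.34 ± 0.09 (SE, edgeR adjusted p of 0.0294). Alkbh1, which oxidises a methylated base of mitochondrial methionine tRNA, had 21.15, 20.01 and 21.33 CPM in control and 17.8, 14.1 and 15.7 CPM with DB2313, a log2 fold change of -0.39 ± 0.12 (SE, edgeR adjusted p of 0.0462). For all 4 genes every DB2313 library lay below every control library, as for 14.5% of all tested genes. All 4 are named because they passed the test, so this separation adds nothing to it. None of the 4 calls held when any 1 control library or DB2313 replicate 2 was left out, when 0 of the 75 were lower, and 3 held without DB2313 replicate 1 and all 4 without DB2313 replicate 3. With 1 library left out, the estimates were -0.72 to -0.65 for Fastkd1 and -0.46 to -0.41 for Fastkd2. Those of Ptcd1 were -0.39 to -0.30 and those of Alkbh1 -0.48 to -0.31. Since the groups did not overlap, leaving out 1 library could hardly turn the sign of any of them. With scaling by library totals only Fastkd1 passed, with no filter only Fastkd1 and Ptcd1, and with a length offset all but Alkbh1 (adjusted p of 0.0539 in edgeR). Alkbh1 shares 1.86% of its exon bases with Slirp and Ptcd1 7.46% with Bud31.

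Several partners of the 10 factors are listed there and did not pass. Prorp, the nuclease subunit of the 5′ processing complex, had 8.73, 7.65 and 8.84 CPM in control and 7.16, 7.57 and 7.09 CPM with DB2313, and its log2 fold change was -0.21 (95% interval of -0.55 to 0.13, edgeR adjusted p of 0.487). Every DB2313 library was below every control library for Prorp and for Nrf1, as for 14.5% of all tested genes. The log2 fold change of Nrf1 was -0.17 (95% interval of -0.36 to 0.02, edgeR adjusted p of 0.284) and that of Gabpa, the DNA-binding subunit of GABP, 0.14 (-0.08 to 0.35, adjusted p of 0.466). Pnpt1 and Supv3l1, which degrade mitochondrial RNA together, were both at -0.08, with intervals of -0.35 to 0.19 and -0.33 to 0.16 and edgeR adjusted p of 0.769 and 0.736. Mtpap, the mitochondrial poly(A) polymerase, was at -0.02 (-0.24 to 0.19, adjusted p of 0.924 in edgeR). These genes were picked for their role after the values were seen.

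**Figure D4:**
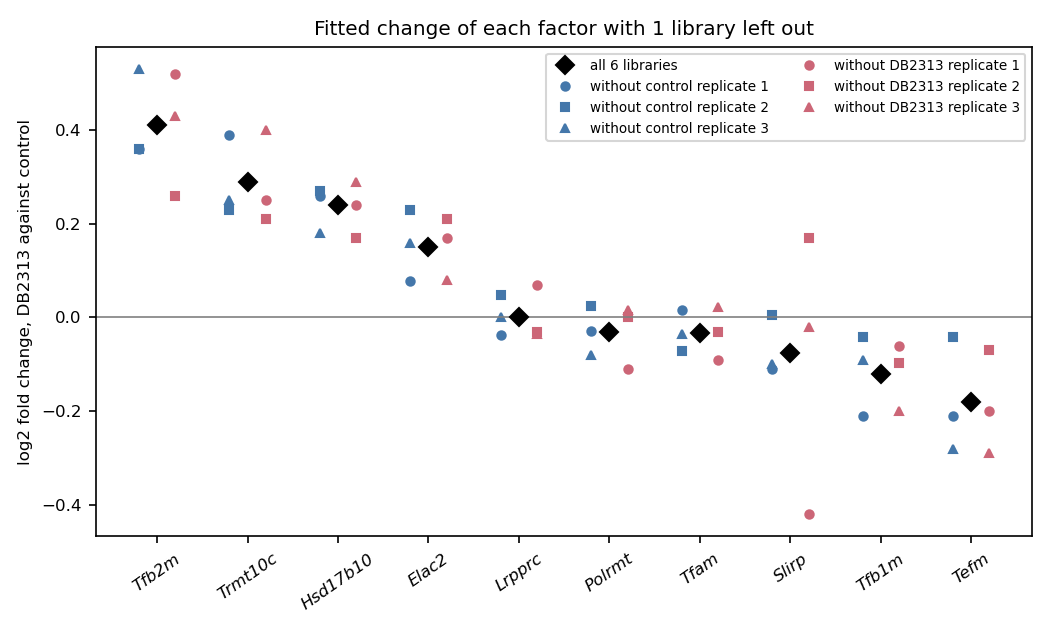
Fitted log2 fold change (DB2313 against control) of each factor from all 6 libraries (black diamond) and with 1 library left out (colour gives the group and shape the replicate number of the library left out). The estimates of Tfb2m, Trmt10c, Hsd17b10 and Elac2 stay above 0, those of Tfb1m and Tefm stay below 0, and the other 4 lie on both sides.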

How the data were processed

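RNA-seq counts of 6 mouse dendritic cell libraries (3 control, 3 DB2313) were analysed. The values the authors deposited are raw counts of reads by gene, not normalised, in 1 table of all libraries. The submitters' processing notes name CASAVA 1.8, HISAT2 2.0.5 and featureCounts 1.5.0-p3, whereas the study's methods name LifeScope. Strandedness, the genome build and the treatment of multiply aligned reads are not given in the sources used here. The table and GENCODE M21 share 54495 gene identifiers, of which 98.33% agree in both ends, and coordinates are therefore stated as GRCm38. Gene lengths were taken from the table.

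Groups follow the treatment in the labels. Columns named for bone marrow-derived dendritic cells were read as control and those named for Spi1 as DB2313, numbered alike. Groups were compared in edgeR 4.0.16 (R 4.3.3) by its quasi-likelihood test after TMM scaling and filterByExpr, with no covariate and with Benjamini-Hochberg adjusted p-values over 14174 genes, called under 0.05. Intervals are the estimate ± SE times the 95% t quantile, with no adjustment. CPM values use TMM-scaled library sizes. Errors cover the spread between libraries, and reads that carry no molecular identifier may repeat a molecule. Depth was 16146743 to 19764677 counts. On simulated data made from these libraries, 78.0% of 200 genes changed by 2-fold and 54.6% of 196 changed by 1.5-fold were called, with 12 and 17 false calls among 13980 and 13953 genes. The share of false calls among the calls was not computed. Only 200 genes were changed in each simulation, against 1503 called in the data, so these rates need not carry over.

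The members, the 4 lists of related genes and the 7 lists of cell markers were chosen with earlier results of these data known. The text names all members, mitochondrial protein and rRNA genes with a mean of at least 1000 counts, and related genes under the threshold. Other settings tried were scaling by DESeq2 size factors or by library totals, leaving out mitochondrial rows, no count filter or a minimum mean of 10 counts, the DESeq2 1.42.0 and limma-voom (limma 3.58.1) tests, a length offset (span 0.3 in lowess), a block for replicate number, alone or with that offset, and each library left out. The sum of Tfb2m and its pseudogene was tried after seeing the data. Near-identical copies were sought by blastn 2.17.0 in GENCODE M21 transcripts (95% identity, 100 bp or more). No batch is given in the labels.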

Additional observations from a re-analysis of the deposited data

How the results depend on the processing

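Under each of the 16 other settings 0 of the 10 factors were lower at an adjusted p under 0.05. With 1 library left out at a time, 0 to 1 were higher, and 1 only without DB2313 replicate 1, when Tfb2m passed (0.52, adjusted p of 0.0189). The log2 fold changes of Tfb2m, Trmt10c, Hsd17b10, Elac2, Tfb1m (-0.21 to -0.041 with 1 library left out) and Tefm (-0.29 to -0.041) kept their direction in all of these settings and with the pseudogene counts added to Tfb2m, a setting chosen after seeing the data. For Hsd17b10 the groups did not overlap, so leaving out 1 library could hardly turn its sign. The log2 fold changes of 4 factors near 0 turned when 1 library was left out: Polrmt ranged from -0.11 to 0.024, Tfam from -0.091 to 0.022, Lrpprc from -0.038 to 0.07 and Slirp from -0.42 to 0.17. With the replicate number as a block, that of Lrpprc was -0.0016.

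Of the other genes of mitochondrial gene expression, 4 were lower with all libraries, and from 0 to 6 when 1 library was left out. The number lower was 1 with library totals, 2 with no filter, 3 with the length offset, 0 with the replicate block and 1 with the block and the length offset together. The number higher ranged from 0 to 1 over the fits that left out 1 library (Dna2 without DB2313 replicate 1). Replicate numbers gave no pairing of libraries (correlations of same-numbered deviations of -0.0080, -0.019 and -0.15). Over all genes, the fits that left out 1 library gave 328 to 1097 higher and 411 to 1311 lower genes against 661 and 842, lowest without DB2313 replicate 2 and highest without DB2313 replicate 3. The causes of these shifts were not tested.

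The log2 difference in the ratio of Tfb2m to Tfb1m was 0.52 and ranged from 0.37 to 0.61 when 1 library was left out, that of Lrpprc to Slirp from -0.17 to 0.50, that of Trmt10c to Hsd17b10 from -0.046 to 0.12 and that of Tfam to Polrmt from -0.095 to 0.048. The median over the 10 well counted mitochondrial transcripts was -0.44, and -0.50 to -0.35 when 1 library was left out. It could not be computed without the mitochondrial rows. With 17 to 31 counts, Slirp limits what can be said of it.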
